A study of Mus musculus with 59 samples.

Results

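Females heterozygous for Ash1l (HT) and wild-type (WT) females, both treated with lithium, were compared by RNA sequencing of the prefrontal cortex. The comparison took the 4 HT lithium female and 5 WT lithium female libraries named as such in the labels, 9 of the 59 libraries of the series. The HT group carried 1 altered copy of Ash1l on a C57BL/6J background and received lithium, and the WT group was C57BL/6J without it and received the same drug. In both groups pups took up the drug by suckling, on postnatal days 3 to 24, and cortex was taken on day 25 after 3 weeks of treatment. The sources used here do not give the kind of Ash1l allele or the lithium dose. The series also holds HT and WT mice of both sexes given vehicle or fluoxetine, and lithium males, which make the other 5 combinations of drug and sex (strata; 50 libraries). The labels do not tie libraries to litters or dams, so the p-values speak of the spread among these samples alone, which may be partly technical.

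Ash1l encodes a histone methyltransferase that places methyl groups on lysine 36 of histone H3, a mark of transcribed chromatin that opposes Polycomb silencing. Loss of 1 copy of the human gene is associated with autism and intellectual disability. Lithium inhibits the kinase GSK3 and inositol monophosphatase, and is used as a mood stabiliser.

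The 9 libraries held 25.51 to 31.77 M reads in HT and 25.46 to 35.49 M reads in WT lithium females. Values are normalised read counts, the count of a gene in a library divided by that library's size factor. They compare libraries within a gene and not genes with each other. In all 9 libraries Xist, which coats the inactive X chromosome, lay between 16080 and 33450, and the Y-linked genes Ddx3y, Eif2s3y, Kdm5d and Uty reached at most 2.121. The cortical excitatory neuron markers Slc17a7 and Camk2a were high in all 9 libraries (Slc17a7 50840 to 57860 in HT, 42340 to 54620 in WT). Some libraries also held markers of neighbouring regions. Eomes, a marker of olfactory bulb projection neurons, lay between 1.86 and 17.06 in HT, against 750.3 and 693 in WT replicates 1 and 2. It was at 74.22 and 40.3 in WT replicates 4 and 5, also above all HT libraries, and at 3.243 in WT replicate 3. Drd2, a dopamine receptor of the striatum, was at 309.1 in HT replicate 1 and 268.3 in WT replicate 4, against 30.93 to 63.25 in the other HT and 22.42 to 28.63 in the other WT libraries. Results are therefore also given without WT replicates 1 and 2, and without HT replicate 1 and WT replicate 4. Leaving out WT replicates 1 and 2 keeps WT replicates 4 and 5, so it lessens the difference in olfactory bulb markers and does not remove it. Leaving out HT replicate 1 and WT replicate 4 likewise keeps HT replicate 2, which had the 63.25 for Drd2.

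Ash1l was the 1 gene that passed the test, and it was lower in HT. Ash1l (ENSMUSG00000028053; GRCm38, chromosome 3, 88950622 to 89079375, plus strand) had normalised counts of 3997, 3641, 3819 and 3782 in HT lithium females, against 4781, 5030, 5015, 4949 and 5020 in WT lithium females. Every HT library lay below every WT library. The means were 3810 ± 146.2 in HT (SD, n = 4) and 4959 ± 104.4 in WT (SD, n = 5). The log2 fold change was -0.38 ± 0.059 (SE; limma, adjusted p = 0.000575), or 0.768-fold. An exact two-sided permutation test over the 9 libraries gave p = 0.00794, the smallest that 126 divisions allow. Of 17875 genes tested, 1 was called at an adjusted p under 0.05, or 0.00559%. At an unadjusted p under 0.05, 726 genes (4.06%) were higher and 641 (3.59%) lower in HT. Without WT replicates 1 and 2 Ash1l was at -0.39 (adjusted p = 0.00942, limma), and without HT replicate 1 and WT replicate 4 at -0.40 (adjusted p = 0.00426, limma).

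Within the other strata the log2 fold change of Ash1l was -0.30 ± 0.056 in lithium males, -0.35 ± 0.056 in fluoxetine females, -0.34 ± 0.056 in fluoxetine males and -0.40 ± 0.056 in vehicle males, all past the threshold (limma). In vehicle females it was -0.11 ± 0.056 (limma, adjusted p = 0.21). There the HT libraries lay between 4107 and 4382, and the library labelled WT vehicle female replicate 3 lay below them at 3557. The change in lithium females was larger in size than that in vehicle females by -0.27 ± 0.081 (interaction, limma, adjusted p = 0.0321). Without that library the interaction was -0.18 (adjusted p = 0.0953, limma), and with trends on GC content and transcript length removed it was -0.03 (adjusted p = 0.876, limma). Without WT lithium female replicates 1 and 2 it was -0.28 (adjusted p = 0.0851, limma).

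Genes that differed between genotypes outside lithium females were looked up next. The mean HT against WT difference over the other 5 strata, which shares no library with lithium females, had 89 genes past the threshold (0.498% of genes tested), 23 higher and 66 lower. In lithium females 49 of the 89 (55.1%) had the same sign, against 43% of all genes. The same sign with an unadjusted p under 0.05 was seen for 13 (14.6%, against 2.67% of all genes), while 3 (3.37%, against 4.97%) had the opposite sign at that level. After adjustment over all genes 1 of the 89 was past the threshold in lithium females, Ash1l itself. The 8 lower ones of the 13 were Ash1l, Skida1, Met, Tbx1, Tbata, Dalir, Gm37069 and AC122898.1, and the 5 higher ones were Trp53i11, Sgsm1, Banp, Il33 and 4833422C13Rik. The 3 of opposite sign were Smchd1, Papola and Rspo1.

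The promoter windows of 4 of these genes are shown, 250 bases before to 50 bases after the start (RefSeq, GRCm38.p6) as examples of the genes called over the other strata, Met and Trp53i11 among those with an unadjusted p under 0.05 in lithium females and the metallothionein genes Mt1 and Mt2 among those without. For Met (chr6:17463707-17464006, plus strand) and Trp53i11 (chr2:93187298-93187597, plus strand) capitals mark CG dinucleotides. For Mt1 (chr8:94178839-94179138, plus strand) and Mt2 (chr8:94172368-94172667, plus strand) capitals mark the core of the metal response element, searched as TGCACNC and TGCGCNC on both strands.
Met: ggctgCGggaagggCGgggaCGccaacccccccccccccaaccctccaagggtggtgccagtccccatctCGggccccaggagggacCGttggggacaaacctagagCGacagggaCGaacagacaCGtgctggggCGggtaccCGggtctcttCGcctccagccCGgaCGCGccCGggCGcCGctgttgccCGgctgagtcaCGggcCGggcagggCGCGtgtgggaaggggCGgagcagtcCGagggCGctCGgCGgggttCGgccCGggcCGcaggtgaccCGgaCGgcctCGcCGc
Trp53i11: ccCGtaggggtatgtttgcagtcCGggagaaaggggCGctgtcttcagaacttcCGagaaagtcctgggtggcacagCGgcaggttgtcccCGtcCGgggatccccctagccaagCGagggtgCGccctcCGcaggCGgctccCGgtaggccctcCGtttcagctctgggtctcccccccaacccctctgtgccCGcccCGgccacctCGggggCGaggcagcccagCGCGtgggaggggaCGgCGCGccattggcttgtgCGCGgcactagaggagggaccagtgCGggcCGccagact
Mt1: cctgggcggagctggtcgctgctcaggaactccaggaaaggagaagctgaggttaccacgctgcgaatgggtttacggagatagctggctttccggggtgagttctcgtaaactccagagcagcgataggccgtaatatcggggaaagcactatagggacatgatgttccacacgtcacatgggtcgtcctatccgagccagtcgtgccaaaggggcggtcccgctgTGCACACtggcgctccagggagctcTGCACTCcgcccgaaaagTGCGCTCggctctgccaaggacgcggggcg
Mt2: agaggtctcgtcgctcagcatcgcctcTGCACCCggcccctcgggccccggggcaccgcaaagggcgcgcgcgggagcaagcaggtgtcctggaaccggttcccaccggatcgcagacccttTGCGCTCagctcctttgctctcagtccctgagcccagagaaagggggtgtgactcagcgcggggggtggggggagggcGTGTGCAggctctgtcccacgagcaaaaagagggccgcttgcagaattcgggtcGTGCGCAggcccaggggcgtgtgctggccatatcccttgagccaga
The Met window held 34 CG, a number that 7.73% of the 32851 promoter windows of the table reached, and the Trp53i11 window 26 (16.9%). The metal response core occurred 3 times in the Mt1 window (1.97% of windows have as many) and 4 times in the Mt2 window (0.517%), and 25.7% of windows held at least 1. A match of these letters is a description and not a bound site.

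Skida1, which encodes a protein with a SKI/DACH domain, had 209.4, 179.5, 177.6 and 189.8 in HT lithium females, against 229.8, 211.6, 271.3, 246.6 and 228 in WT lithium females. The groups did not overlap, with HT replicate 1 next to WT replicate 2. Its log2 fold change was -0.33 ± 0.082 (limma, adjusted p = 0.376), and -0.31 ± 0.035 over the other strata (adjusted p = 3.12e-08). Met, the receptor of hepatocyte growth factor, had 320.1, 272.5, 271.6 and 280.5 in HT, against 434.8, 490.7, 487.5, 331.1 and 427.4 in WT. WT replicate 4, also high in striatal markers, was the WT library nearest to HT. The log2 fold change of Met was -0.59 ± 0.15 (limma, adjusted p = 0.376) in lithium females, and -0.39 ± 0.064 elsewhere (adjusted p = 0.000371). Without HT replicate 1 and WT replicate 4 it was -0.74 (adjusted p = 0.263, limma). It was -0.52 without WT replicates 1 and 2 (adjusted p = 0.999, limma).

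Trp53i11, a gene induced by p53, had 2283, 2382, 2260 and 2377 in HT lithium females and 2033, 2094, 1847, 2004 and 1818 in WT lithium females. All HT libraries lay above all WT libraries. The log2 fold change was 0.25 ± 0.092 (limma, adjusted p = 0.565), beside 0.24 ± 0.039 over the other strata, and 0.15 in lithium females with trends on GC content and transcript length removed. Tbx1, a T-box transcription factor, was near the lower limit of measurement, with 1.096, 11.16, 13.93 and 18.13 in HT and 28.02, 23.86, 35.67, 33.11 and 37.12 in WT. Its groups did not overlap either, and its log2 fold change was -1.80 ± 0.79 (limma, adjusted p = 0.631), or -1.07 without HT replicate 1 and WT replicate 4. Il33, a cytokine stored in nuclei, was at 0.36 ± 0.16 in lithium females (limma, adjusted p = 0.632) and at 0.28 ± 0.068 elsewhere. Its groups overlapped, with 280.9 in WT replicate 4 against 225.1 to 253.8 in HT.

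The metallothioneins bind zinc and copper. Mt2 had 1369, 1284, 1277 and 1905 in HT lithium females, against 1678, 1244, 1349, 1593 and 1547 in WT lithium females. Mt1 had 2990, 2829, 3056 and 3388 in HT, against 2983, 2711, 2983, 3376 and 3343 in WT. Both genes overlapped widely between the genotypes. Their log2 fold changes in lithium females were -0.04 ± 0.13 for Mt2 and -0.005 ± 0.11 for Mt1, against -0.36 ± 0.056 and -0.27 ± 0.048 over the other strata. The difference between lithium females and the other strata was 0.32 ± 0.14 for Mt2 and 0.26 ± 0.12 for Mt1, and neither passed the test (limma, adjusted p = 0.437 and 0.454). With trends removed Mt2 was at -0.12 and Mt1 at -0.05 in lithium females. The same difference was -0.20 ± 0.16 for Met (adjusted p = 0.682, limma), so no test separates these genes from the metallothioneins. In lithium males Mt2 was at -0.25 ± 0.13 and Mt1 at -0.12 ± 0.11. The list of 16 metallothioneins and zinc transporters had a median of -0.0375 with 6 above 0 (-0.00586 with trends on GC content and length removed, -0.0221 without HT replicate 1 and WT replicate 4).

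Of the 12 genes with the smallest p over the other strata, the remaining 5 also overlapped between the genotypes in lithium females. Cxcl14, a chemokine gene, was at -0.02 ± 0.070, Aldh1a1, which makes retinoic acid, at -0.12 ± 0.13, Kirrel2 at -0.05 ± 0.18 and Tchh at -0.21 ± 0.15. Pigz, of glycosylphosphatidylinositol anchor synthesis, was at 0.32 ± 0.19 in lithium females and -0.43 ± 0.080 elsewhere. With trends removed the values in lithium females were -0.11 for Cxcl14, -0.08 for Aldh1a1, -0.15 for Kirrel2 and 0.21 for Pigz, and Pigz was at 0.12 without WT replicates 1 and 2. Over all genes, none passed a test of the difference between lithium females and the mean of the other 5 strata (limma, 0%; 1813 genes at an unadjusted p under 0.05; edgeR 0, DESeq2 6). That comparison was added after the values had been seen.

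**Figure D1:**
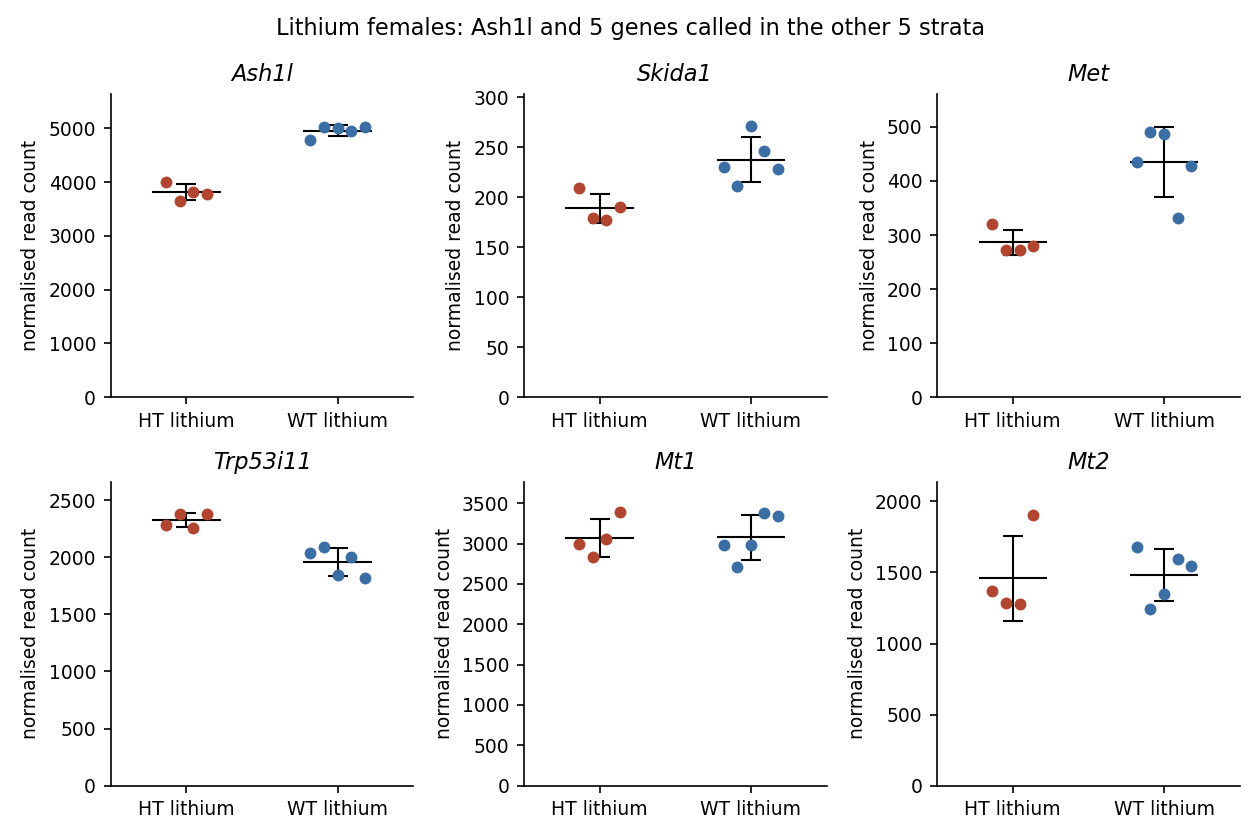
Normalised read counts (y axis, from 0) of Ash1l, Skida1, Met, Trp53i11, Mt1 and Mt2 in the 4 HT lithium female (left) and 5 WT lithium female (right) libraries, with a point per library and black bars for the mean ± SD. For Ash1l, Skida1, Met and Trp53i11 the groups do not overlap, which 3.74% of all genes also show, and for Mt1 and Mt2 they do.

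**Figure D2:**
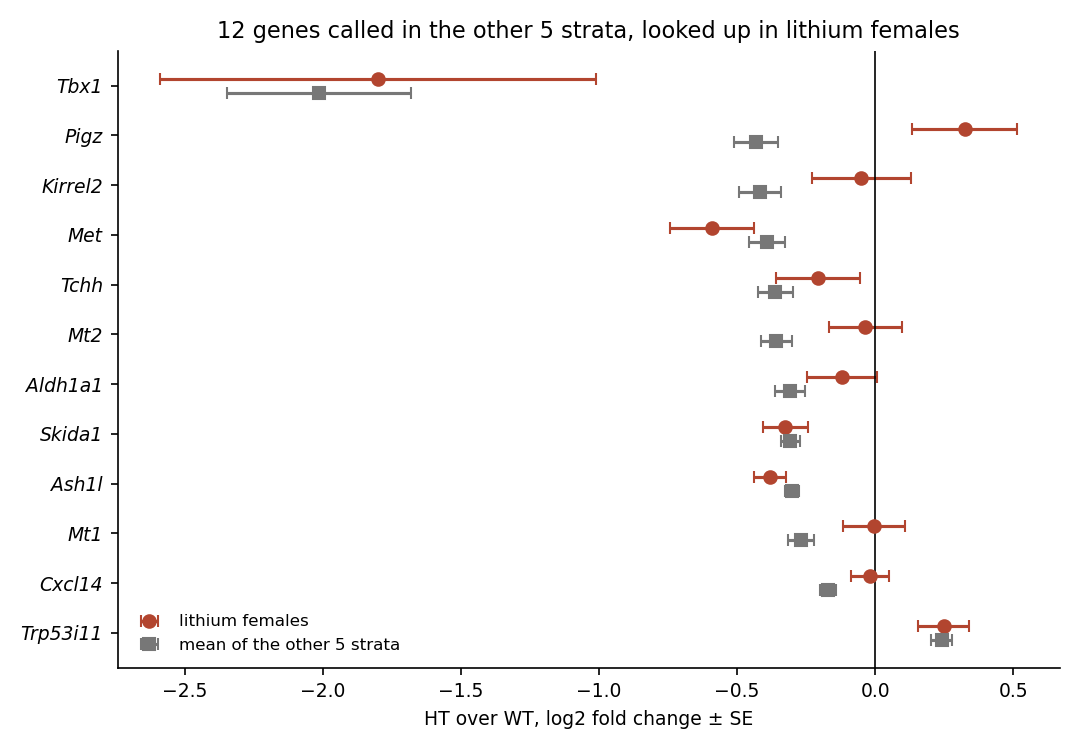
Log2 fold change of HT over WT (x axis, ± SE) in lithium females (circles, above) and over the mean of the other 5 strata (squares, below) for the 12 named genes with the smallest p in the other strata. Skida1 is at -0.33 and -0.31, Trp53i11 at 0.25 and 0.24, and Mt2 at -0.04 and -0.36, and no difference between lithium females and the other strata passed the test. With trends on GC content and length removed, Trp53i11 is at 0.15, Mt2 at -0.12, Cxcl14 at -0.11 and Kirrel2 at -0.15 in lithium females.

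Besides Ash1l no gene passed in lithium females, so the genes with the smallest p in each direction are given by their values alone. Of the 10 higher and 10 lower ones, 18 had groups that did not overlap, which 3.74% of all genes also showed (2.05% with HT above, 1.68% with HT below), and Postn and Lrmda overlapped. Since these genes were chosen by their p-value in the same libraries, nothing is read from that count.

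Among the genes with positive values were Sst and Sstr2. Sst, the neuropeptide of a class of cortical interneurons, had 5414, 5611, 5462 and 4410 in HT lithium females, against 2778, 2753, 4118, 3698 and 4349 in WT lithium females. The lowest WT libraries, replicates 1 and 2, were those with high olfactory bulb markers. Its log2 fold change was 0.58 ± 0.16 (limma, adjusted p = 0.457), and 0.36 (adjusted p = 0.999) without those 2 libraries. Sstr2, a somatostatin receptor, had 974.5, 723.6, 753.2 and 588.7 in HT and 397.1, 503.2, 482.1, 546.9 and 495.3 in WT (0.63 ± 0.17, adjusted p = 0.457). HT replicate 1 was the highest and HT replicate 4 the nearest to WT. Over the other strata Sst was at -0.21 ± 0.066 and Sstr2 at 0.11 ± 0.072, both short of the threshold. Other interneuron markers went both ways in lithium females. Gad1 (-0.29 ± 0.25), Gad2 (-0.23 ± 0.16) and Vip (-0.14 ± 0.18) lay below 0, and Pvalb (0.34 ± 0.18) above. The list of interneuron markers and neuropeptides had 12 of 26 above 0.

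The other 8 genes with positive values had varied roles. Lmo1, a LIM-only transcriptional regulator, had 196.2, 200.9, 221.7 and 188.8 in HT lithium females and 157.7, 129.7, 122.1, 125.6 and 159.1 in WT lithium females, with a log2 fold change of 0.54 ± 0.13 (limma, adjusted p = 0.298) and of 0.20 ± 0.056 over the other strata. Gadd45a, a gene of the DNA damage and stress response, had 229.1, 176.7, 177.6 and 163.2 in HT and 112 to 130.5 in WT (0.58 ± 0.15). The WT values lay close together, and HT replicate 1 stood highest. Sec14l2, which binds lipids, was at 0.26 ± 0.059 (1208 to 1390 in HT, 1038 to 1136 in WT), and DESeq2 called it (adjusted p = 0.0293). Efna3, an ephrin ligand, was at 0.31 ± 0.080, Pdgfb, a platelet-derived growth factor, at 0.35 ± 0.095, N4bp3 at 0.68 ± 0.18, Arhgap25, a GTPase-activating protein, at 0.69 ± 0.18 and Serinc2 at 0.71 ± 0.19. With trends removed Pdgfb was at 0.22.

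Among genes with negative values, Mpped2, a metallophosphoesterase gene, had 837.5, 763.6, 694 and 820.2 in HT lithium females, against 1075, 1119, 977.1, 1050 and 869.7 in WT lithium females. WT replicate 5 was the nearest to HT. The log2 fold change was -0.38 ± 0.081 (limma, adjusted p = 0.13), and without WT replicate 5 it was -0.44 and past the threshold (adjusted p = 0.0204). It was -0.31 without WT replicates 1 and 2 (adjusted p = 0.999, limma). Zfhx4, a zinc finger homeobox factor, had 327.8, 395.3, 432.9 and 405.3 in HT and 546.1, 676.4, 670.2, 529.8 and 640.6 in WT. All HT libraries lay well below the WT range, at -0.65 ± 0.14 (adjusted p = 0.137). DESeq2 called Mpped2, Zfhx4 and Wdr75, a factor of ribosomal RNA processing (-0.30 ± 0.067), which limma did not, and a limma fit to females alone called Zfhx4 (adjusted p = 0.0254). Cstf3, of the cleavage stimulation factor that acts in polyadenylation, was at -0.38 ± 0.091 and Tbc1d23, which tethers endosome-derived vesicles at the Golgi, at -0.29 ± 0.081. Postn, a matrix protein, was at -0.82 ± 0.20, with 104.1 to 226.3 in HT and 213.5 to 365.9 in WT. Lrmda was at -1.24 ± 0.36 with counts of 1.161 to 7.466 in HT and 6.851 to 15.13 in WT.

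Whether the genotype difference under lithium was that seen with vehicle was tested in females as an interaction, the HT minus WT difference in lithium females less that in vehicle females (5 HT and 5 WT libraries). It passed for 1465 genes (8.2% of those tested, limma), of which 606 were positive and 859 negative. The positive ones had a median log2 fold change of 0.198 in lithium females and -0.254 in vehicle females, and the negative ones -0.165 and 0.329. Within vehicle females the HT against WT difference passed for 1109 of the 17875 genes tested, and within lithium females for 1 (limma). Of the positive interaction genes 243 passed within vehicle females, and of the negative ones 575. These medians and counts describe genes chosen by the same libraries. GC content moved with the sign, with a median of 57.2% in the positive and 42.3% in the negative genes, against 49.3% in all genes. With GC content and length trends removed 13 genes passed, 10 of them among the 1465. The count was 621 without the library labelled WT vehicle female replicate 3, which went against its label for Ash1l, and 66 without WT lithium female replicates 1 and 2, all 66 among the 1465. Without single libraries it was 973, 563 and 632 (HT lithium female replicates 1, 2 and 3), 757 and 874 (WT lithium female replicates 1 and 2), and 795, 480 and 2408 (HT vehicle female replicates 2, 4 and 5). Markers of the olfactory bulb and immature neurons had a median of -0.906 in lithium females and 0.881 in vehicle females (interaction -1.65). Leaving out WT lithium female replicates 1 and 2 keeps the vehicle side of this difference. The part of these markers in the interaction was not tested.

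The interaction passed in all 3 of these fits (all libraries, trends removed, WT replicates 1 and 2 left out) for 6 genes, which were picked out after the values had been seen. Each of the 6 had an adjusted p of 0.0349 with trends removed (limma). Without WT replicates 1 and 2 it was 0.0473 for each (limma), just under the threshold. The adjusted p-values below are those of all libraries. Smchd1, which acts in X chromosome silencing, had an interaction of -0.69 ± 0.12 (limma, adjusted p = 0.00321). In lithium females it had 1063, 969.2, 950.5 and 1209 in HT, against 1284, 1223, 1207, 1265 and 1126 in WT, whereas in vehicle females HT averaged 1346 ± 152 and WT 976.4 ± 112.1 (SD, n = 5 each). HT replicate 4 lay within the WT range under lithium. Its interaction was -0.39 with trends removed. The RNA helicase genes Dhx15 (-0.73 ± 0.13) and Dhx36 (-0.70 ± 0.13) had negative interactions as well. With trends removed these interactions were -0.57 and -0.37. Dhx15 had 2391, 2238, 2130 and 2243 in HT lithium females and 2995, 2908, 2563, 2632 and 2568 in WT lithium females, with no overlap, and averaged 2828 ± 387.2 in HT and 2058 ± 221.1 in WT vehicle females (SD, n = 5 each).

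Gphn encodes gephyrin, the scaffold of inhibitory synapses. It had 1920, 2012, 1844 and 1830 in HT lithium females, against 2196, 2199, 2060, 2250 and 2117 in WT lithium females. No library overlapped. In vehicle females Gphn averaged 2241 ± 184.2 in HT and 1893 ± 101.7 in WT (SD, n = 5 each), and the interaction was -0.43 ± 0.088 (limma, adjusted p = 0.00628). Mpped2 had an interaction of -0.58 ± 0.11 (adjusted p = 0.00628). Lmna, which encodes the nuclear lamins A and C and lies 440.7 kb from Ash1l, had the positive interaction of 0.66 ± 0.14 (adjusted p = 0.00628), with means of 1313 ± 116.7 in HT lithium females (SD, n = 4), 1071 ± 78.02 in WT lithium females, 1080 ± 156.1 in HT vehicle females and 1387 ± 106.1 in WT vehicle females (SD, n = 5 each). Selenow (0.67), Il1rapl1 (-0.95) and Pgap1 (-1.005) were also among the 6 of smallest p over all libraries, but did not pass with trends removed (adjusted p = 0.186, 0.094 and 0.107, limma).

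**Figure D3:**
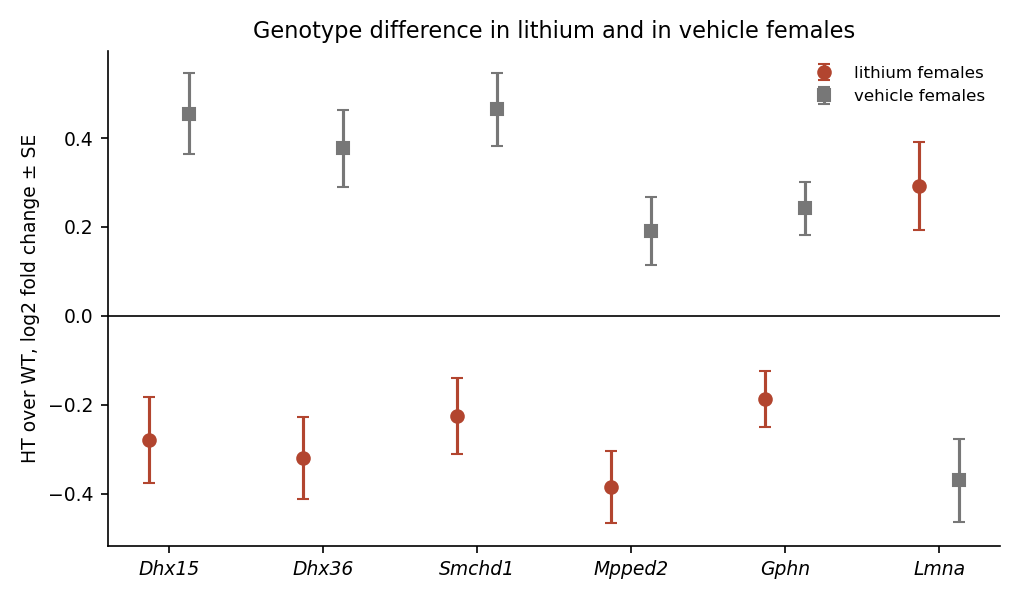
Log2 fold change of HT over WT (y axis, ± SE) in lithium females (circles, left of each gene) and vehicle females (squares, right) for the 6 genes whose interaction passed in all 3 fits. Dhx15, Dhx36, Smchd1, Mpped2 and Gphn are below 0 in lithium females and above 0 in vehicle females, and Lmna is the other way round.

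Between the sexes under lithium no gene passed (females minus males, limma, 0%; 1151 genes at an unadjusted p under 0.05; edgeR 0, DESeq2 1). The 3 smallest p-values belonged to Vps36 (-0.48 ± 0.11), Wdr41 (-0.32 ± 0.074) and Gadd45a (0.89 ± 0.21), each with an adjusted p of 0.5 (limma).

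The genotype difference in lithium females varied with the GC content of genes. Across genes in these same 9 libraries the log2 fold change had a Spearman correlation of 0.432 with the GC content of the transcript and of -0.145 with its length (genes share these libraries and are not replicates). In the other strata the correlation with GC content was -0.52 in vehicle females, -0.158 in fluoxetine females, 0.219 in vehicle males, 0.37 in fluoxetine males and -0.0767 in lithium males, so a positive one was not particular to lithium females. In lithium females the median ran from -0.11 in the decile of lowest GC content (39.1%) to 0.134 in that of highest (59.7%). Library by library, HT replicates 1 to 3 lay 0.0937 to 0.151 above the mean of the 9 in the highest decile, whereas HT replicate 4 and all 5 WT replicates lay 0.0307 to 0.107 below it. The part of this trend in the gene groups that follow was not tested, and list medians with it removed are given where they move by over 1.5 times.

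**Figure D4:**
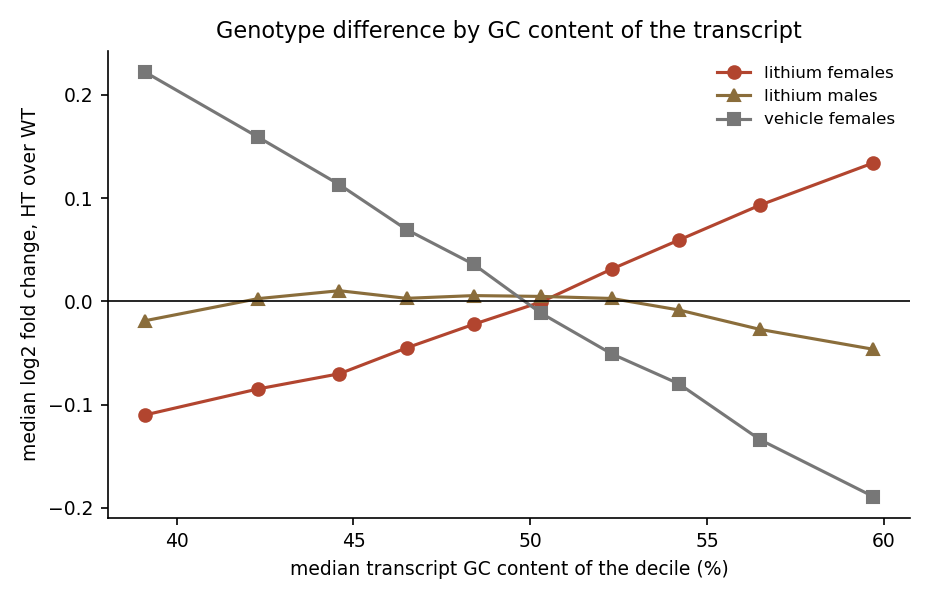
Median log2 fold change of HT over WT (y axis) in each decile of transcript GC content (x axis, percent) for lithium females (circles), lithium males (triangles) and vehicle females (squares). Lithium females run from -0.11 to 0.134, and vehicle females from 0.222 to -0.189.

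Of the 37 gene lists examined, the only member past the threshold in lithium females was Ash1l, so each list is given by its counts and median. Over all genes 48.8% had a log2 fold change above 0 and the median was -0.00444. In these bulk samples fewer cells of a type and less RNA per cell cannot be told apart.

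The enzymes that write or erase methylation at lysine 36 of histone H3 had 3 of 16 members above 0 and a median of -0.115. Setd2, which makes the trimethyl mark, had 2187, 2179, 2137 and 2496 in HT lithium females, against 2575, 2489, 2468, 2454 and 2499 in WT lithium females. HT replicates 1 to 3 lay below all WT libraries and replicate 4 among them, with a log2 fold change of -0.15 ± 0.074 (limma, unadjusted p = 0.0424). Kdm4c, a demethylase, was at -0.24 ± 0.085, and at -0.12 without WT replicates 1 and 2. Of the other enzymes that make the same mark as Ash1l, Nsd1 (-0.07 ± 0.069) and Nsd3 (-0.06 ± 0.067) lay nearer 0, and Nsd2 (-0.14 ± 0.083) was close to Setd2. The list's median was -0.0489 with trends removed and -0.0712 without WT replicates 1 and 2. Polycomb core genes had 12 of 28 above 0 (median -0.0466; 0.03 without WT replicates 1 and 2, -0.0111 with trends removed), with Suz12 at -0.33 ± 0.12. The KMT2 and KDM6 list had 7 of 16 above 0 (median -0.0553; -0.0216 without WT replicates 1 and 2), with Kdm6a at -0.16 ± 0.071 (-0.07 with trends removed). Kmt5b, which the list holds though it belongs to neither family, was at -0.19 ± 0.072. Of 52 autism risk genes 18 were above 0 (median -0.0703; -0.0251 with trends removed), and the smallest p was that of Naa15 (-0.23 ± 0.073; -0.13 with trends removed).

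For the targets of lithium, 16 of 22 genes of GSK3 and inositol metabolism were above 0 (median 0.0948; 0.0535 with trends removed). Gsk3a had 6157, 7207, 6712 and 6014 in HT lithium females and 5534, 5762, 6351, 5910 and 5832 in WT lithium females, with overlap at HT replicates 1 and 4 (0.15 ± 0.071). With trends removed Gsk3a was at 0.02 (limma, unadjusted p = 0.833). Gsk3b was at -0.06 ± 0.087, Impa1, an inositol monophosphatase, at 0.04 ± 0.066, and Inpp5a, an inositol phosphate phosphatase, at 0.17 ± 0.079. Canonical Wnt genes, downstream of GSK3, had 23 of 39 above 0 (median 0.0374; -0.028 with trends removed and 0.0156 without WT replicates 1 and 2), with Bcl9 at 0.22 ± 0.090 and Dvl1 at 0.17 ± 0.081 (0.04 with trends removed).

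Immediate early genes, which neuronal activity induces, had 29 of 35 above 0 (median 0.198; 0.297 without WT replicates 1 and 2, 0.123 with trends removed). Their members varied between libraries within a group. Arc had 5669, 1979, 6999 and 2576 in HT lithium females and 3282, 5483, 1898, 2996 and 3100 in WT lithium females, and Fos was at 0.26 ± 0.32. Klf4 (0.45 ± 0.18; 0.29 without HT replicate 1 and WT replicate 4) and Ier5 (0.33 ± 0.12) had the smallest p. ERK feedback genes had 13 of 14 above 0 (median 0.141; 0.087 without HT replicate 1 and WT replicate 4), with Ier3 at 0.37 ± 0.15. In the vehicle females the medians of both lists were below 0 (-0.159 and -0.0708).

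Sterol synthesis genes had 26 of 27 above 0 (median 0.107), with Mvd at 0.32 ± 0.13 and Pmvk, which lies 375.2 kb from Ash1l, at 0.21 ± 0.076. With trends removed Mvd was at 0.18 and Pmvk at 0.09. Cytosolic ribosomal protein genes had 69 of 78 above 0 (median 0.0762; 0.0416 with trends removed), nuclear-encoded respiratory chain genes 52 of 74 (median 0.0747; 0.0477 without WT replicates 1 and 2, 0.044 with trends removed) and mitochondrially encoded genes 10 of 13 (median 0.05; 0.0994 without HT replicate 1 and WT replicate 4, 0.151 with trends removed). Cox6a1 was at 0.28 ± 0.098 and Rps15 at 0.19 ± 0.082, and with trends removed at 0.13 and 0.05. In vehicle females all 4 medians were below 0, from -0.102 to -0.259.

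Synaptic receptor genes had values mostly below 0, less so with trends on GC content and length removed. Of the GABA-A receptor subunits and gephyrin 1 of 13 was above 0 (median -0.131). With trends removed 5 of 13 were above 0 (median -0.036). Gabrb2 had 2754, 2797, 2945 and 4060 in HT lithium females and 3704, 3878, 4410, 3725 and 3716 in WT lithium females, so HT replicate 4 was among the WT libraries and the others were below (-0.32 ± 0.15). Ionotropic glutamate receptor subunits had 6 of 17 above 0 (median -0.0676; -0.0335 without HT replicate 1 and WT replicate 4), with Grik2 at -0.23 ± 0.093 (-0.10 with trends removed). With trends removed 8 of these 17 were above 0 (median -0.0198).

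Markers of cell types and neighbouring regions moved with single libraries. Markers of the olfactory bulb and immature neurons had 0 of 18 above 0, with a median of -0.906, and their summed counts lay between 13920 and 15170 in HT and between 14360 and 46940 in WT. The median of this list was 0.881 in vehicle females, 0.792 in fluoxetine females and -0.0758 in lithium males. Doc2g had 266.4, 256.7, 254.2 and 212.2 in HT lithium females and 2983, 2286, 91.88, 527.5 and 475.1 in WT lithium females. Dcx, of migrating immature neurons, was at -1.05 ± 0.40, and at -0.49 without WT replicates 1 and 2. Without WT replicates 1 and 2 the median was -0.208, with 2 of 18 above 0. Reln, an autism risk gene of interneurons and olfactory bulb, was at -0.55 ± 0.23, and at -0.29 without those 2 libraries. Striatal markers had 16 of 19 above 0 (median 0.195), with sums of 15810 to 32530 in HT and 13520 to 36430 in WT. Their median was -0.0277 without WT replicates 1 and 2, with 8 of 19 above 0. Without HT replicate 1 and WT replicate 4, the libraries highest in these markers, it was 0.247, with 16 of 19 above 0. That fit keeps HT replicate 2, whose mean log2 level was 8.643, against 7.85 to 8.162 in the other libraries kept. No member of these 2 lists that was tested was at 0 in all 9 libraries.

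Myelin and oligodendrocyte genes had 22 of 22 above 0, with a median of 0.335, and none reached an unadjusted p under 0.05. Their sums were 191900, 171500, 129000 and 123300 in HT lithium females and 122400, 91830, 96150, 174600 and 133400 in WT lithium females. HT replicates 1 and 2 and WT replicate 4 were high, and the other libraries overlapped. Mbp, of compact myelin, was at 0.35 ± 0.30. The median was 0.352 without HT replicate 1 and WT replicate 4, and 0.212 without WT replicates 1 and 2. In vehicle females it was -0.454.

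Microglia genes had 19 of 20 above 0 (median 0.157; 0.106 without HT replicate 1 and WT replicate 4), and 5 of them were higher at an unadjusted p under 0.05, against 4.06% of all genes. C1qa, which starts the classical complement cascade, had 1013, 1026, 1072 and 999.4 in HT lithium females, against 910.4, 825.8, 875.5, 773 and 837.8 in WT lithium females. C1qc had 1127, 1098, 1115 and 986.6 in HT and 927.2, 959.6, 864.7, 827.8 and 859 in WT. Neither gene overlapped between the groups, and the log2 fold changes were 0.28 ± 0.091 and 0.28 ± 0.095 (limma, unadjusted p = 0.00274 and 0.00412). With trends removed they were 0.14 and 0.16. Cx3cr1, the fractalkine receptor of microglia, overlapped (0.11 ± 0.11).

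Brain endothelial genes had 16 of 20 above 0 (median 0.122), pericyte and smooth muscle genes 11 of 12 (median 0.103; 0.0417 without HT replicate 1 and WT replicate 4), and meningeal fibroblast and matrix genes 3 of 25 (median -0.207), with Lum at -0.63 ± 0.27. Astrocyte genes had 12 of 21 above 0 (median 0.0529; -0.00475 with trends removed, 0.0262 without WT replicates 1 and 2). The glycolytic Aldoc, their gene of smallest p, had 22470, 21250, 22300 and 20420 in HT lithium females against 16320, 17740, 17470, 19330 and 18360 in WT lithium females, with no overlap (0.28 ± 0.078). The astrocyte markers Slc1a3 (-0.16 ± 0.087), Gfap (-0.20 ± 0.23) and Aqp4 (-0.12 ± 0.14) lay below 0, and Aldh1l1 (0.06 ± 0.10) above. Ttr, the transthyretin of choroid plexus, had 122.8, 307.9, 473.5 and 2.133 in HT and 1.081 to 8.3 in WT, while the choroid plexus list as a whole had 5 of 11 above 0 (median -0.0645; 0.0907 without WT replicates 1 and 2, 0.059 with trends removed). Interneuron markers and neuropeptides had 12 of 26 above 0 (median -0.0843; -0.0446 without WT replicates 1 and 2), and cortical layer markers 13 of 22 (median 0.0809; 0.0262 without WT replicates 1 and 2, 0.0267 without HT replicate 1 and WT replicate 4). Red blood cell genes had 4 of 5 above 0 (median 0.35). The remaining lists, of glucocorticoid, clock, unfolded protein, heat shock, interferon, oligodendrocyte precursor, thalamic, thyroid hormone, hypoxia and Notch genes, had medians between -0.0483 and 0.074, with no member past the threshold. Most of these medians moved by over 1.5 times. With trends removed the median was -0.0269 for Notch (0.074 before), 0.00606 for oligodendrocyte precursor (-0.0483), 0.0165 for thyroid hormone (0.0694), -0.0639 for glucocorticoid (-0.0318), 0.0358 for interferon (0.0642) and 0.0556 for thalamic genes (0.0366). Without WT replicates 1 and 2 it was -0.0268 for thalamic, 0.0179 for clock (0.0487), 0.0189 for heat shock (0.0561), -0.0537 for glucocorticoid and 0.0368 for Notch genes. Without HT replicate 1 and WT replicate 4 it was -0.0356 for thalamic, 0.0027 for interferon, 0.0887 for heat shock and 0.0356 for Notch genes.

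**Figure D5:**
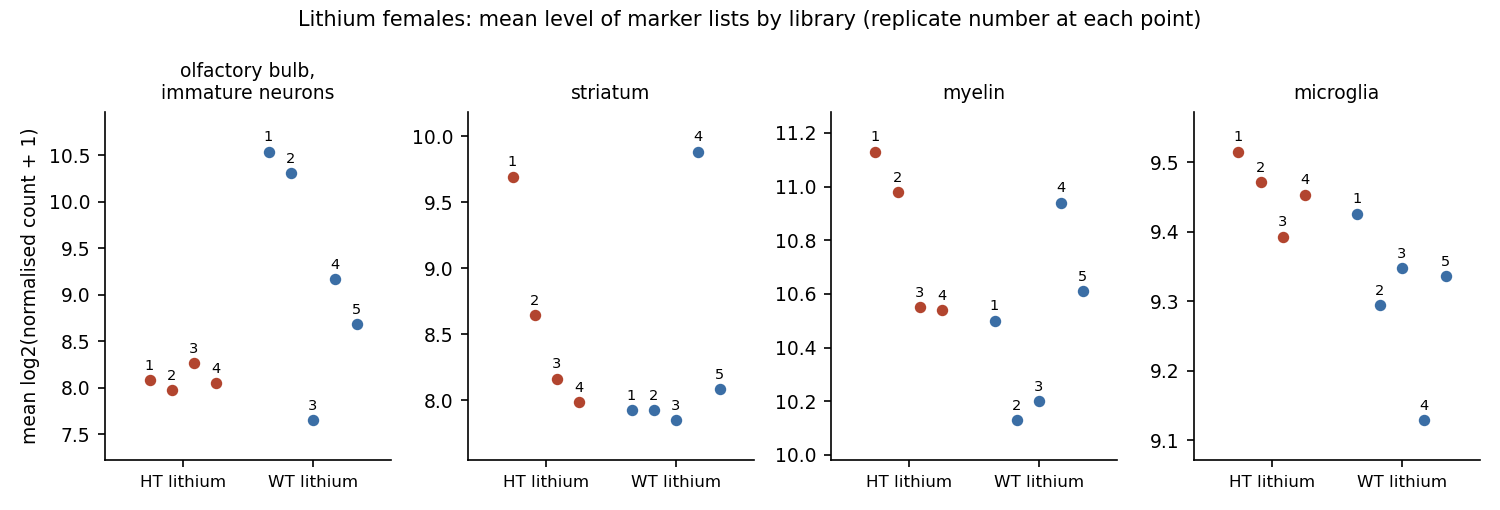
Mean log2(normalised count + 1) over the members of 4 marker lists (y axis) in each HT lithium female (left) and WT lithium female (right) library, with the replicate number at each point. WT replicates 1 and 2 are high for olfactory bulb markers, HT replicate 1 and WT replicate 4 for striatal markers, and HT replicates 1 and 2 and WT replicate 4 for myelin genes.

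Within 1 Mb of Ash1l 79 other genes were tested. Of these 61 had a log2 fold change above 0 (median 0.0773), against 48.8% of all genes. At an unadjusted p under 0.05, 11 were higher (4.06% of all genes) and 0 lower (3.59%), and none was past the adjusted threshold. Over the other 5 strata their median was -0.000992. Their median GC content was 53.4%, and with trends removed 47 of 79 were above 0 (median 0.0407) and 5 were higher at an unadjusted p under 0.05. Efna3 (0.31 ± 0.080), Lmna (0.29 ± 0.099), Pmvk (0.21 ± 0.076) and Mef2d, a transcription factor of activity-dependent genes (0.21 ± 0.090), were among the 11.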

How the data were processed

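The deposited table held 1 signal per gene and library, which the authors made by dividing read counts by size factors, with no log transformation. The submitters' processing notes name Salmon 0.11.2, R 3.6.0, DESeq2 1.19.11 and GRCm38, and the labels' protocols a stranded mRNA kit. Dividing each library by its smallest step gave whole reads for 100% of values within a tolerance of 0.01 (24.47 to 36.32 M reads in the 59 libraries). PCR copies are not independent molecules, so depth speaks of counting error only. Symbols, positions and transcript GC content came from GENCODE M21 (GRCm38) for 18077 of 18088 genes.

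Genes with a normalised count of at least 10 in at least 5 libraries were tested (17875). Values were tested as log2(normalised count + 1) in R 4.3.3 by limma 3.58.1, using its trended and robust variance estimates, with 12 group means over all 59 libraries and Benjamini-Hochberg adjustment over all genes tested, threshold 0.05. A fold change on this scale understates the change of low genes. The limma branch of the design was used because the values are normalised. The count tests edgeR 4.0.16 (quasi-likelihood) and DESeq2 1.42.0 on the recovered reads, which called 1 and 8 genes in lithium females, were alternatives, with other pseudocounts, filters, scalings, blocks, a removal of GC content and length trends, and libraries left out. The tests were tried on simulated data. Members, lists and comparisons were chosen with earlier results of these data known.

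Genes are named by rule: Ash1l; in lithium females the 10 higher and 10 lower genes of smallest p, predicted genes left out; up to 6 genes per interaction (3 as values only where fewer than 3 pass); the 12 genes of smallest p over the other 5 strata; and up to 2 genes of smallest p per list. Other genes are list members or were chosen after their values were seen (Il33, the remaining genes among the 13 and the 3, Mef2d, Lmna, Setd2, Nsd1, Nsd2, Nsd3, Gsk3b, Impa1, Arc, Fos, Doc2g, Mbp, Cx3cr1, Gfap, Aqp4, Aldh1l1, Gad1, Gad2, Vip, Pvalb). Replicate numbers did not pair the libraries.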

Additional observations from a re-analysis of the deposited data

Results flagged for a closer look

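Among 144 groups of values examined (named genes and list means, in the HT or WT lithium females), 6 had 1 library far from the others. Chance alone flags about 1 in 20 such groups. Sst was at 4410 in HT lithium female replicate 4, against 5414 to 5611 in the other 3. Postn was at 213.5 in WT replicate 4, against 321.6 to 365.9 in the other WT libraries, and Cstf3 at 671.2 in WT replicate 3, against 805.5 to 860.1. As mean log2 levels, the GABA-A receptor and gephyrin list was at 11.64 in HT replicate 4 (11.45 to 11.48 in the others), the unfolded protein response list at 10.41 in WT replicate 1 (10.51 to 10.54) and the striatal list at 9.884 in WT replicate 4 (7.85 to 8.085).

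For 21 named genes the genotype difference in lithium females differed from that in vehicle females (interaction, limma, adjusted p of 0.00321 to 0.0498). Over all genes tested 8.2% passed. Besides the genes whose interactions are described above, namely Ash1l (-0.2669), Smchd1 (-0.6897), Selenow (0.666), Dhx15 (-0.7333), Il1rapl1 (-0.9493), Dhx36 (-0.6969), Pgap1 (-1.005) and Mpped2 (-0.5751), the 21 were genes of small p in lithium females and Pigz, named for its p in the other strata. Smchd1, Selenow, Dhx15, Il1rapl1, Dhx36 and Pgap1 were named for their p in this same interaction. The others, save Ash1l and Pigz, were named for their p in the lithium female libraries, which the interaction also uses. Nothing is therefore read from the count of 21. Positive differences were found for Sec14l2 (0.3354), N4bp3 (1.021), Efna3 (0.3585), Gadd45a (0.6975), Sst (1.054), Sstr2 (0.706), Serinc2 (0.8483), Pdgfb (0.552) and Pigz (0.8455). Negative differences were found for Zfhx4 (-0.7449), Wdr75 (-0.4065), Cstf3 (-0.5988) and Tbc1d23 (-0.5014). With GC content and length trends removed, Mpped2, Smchd1, Dhx15 and Dhx36 of these 21 were still called.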

How the results depend on the processing

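Ash1l stayed lower in HT lithium females and past the threshold in all 24 alternatives, between -0.40 and -0.31 on the log2 scale (-0.40 to -0.36 with single libraries left out; adjusted p of 4.8e-09 to 0.0438 with limma, edgeR or DESeq2). With a replicate block it was -0.38 (limma, adjusted p = 0.00138). The replicate numbers did not pair the libraries (mean correlation of deviations -0.0398 for the same number, 0.00998 for others; 0 HT libraries correlated best with their own number), and the block moved no count of calls by over 1.5 times unless trends were also removed.

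The count of 1 gene in lithium females was 8 with DESeq2, 2 with females alone and 1 to 2 with single libraries left out (2 without WT replicate 5). Of the 8, Gm4459, Gm28037 and Gm28048 had reads in 2 to 3 HT libraries and 0 in every WT library. The interaction with vehicle (1465) was 642 with only the compared groups, 13 with GC content and length trends removed, 12 with the replicate block as well, 66 without WT lithium female replicates 1 and 2, 944 without HT replicate 1 and WT replicate 4 (the last 2 chosen after seeing the data), 2154 with DESeq2, and 480 to 2408 with single libraries left out. The interaction with sex (0) was 1 with DESeq2 (Gm28037) and 0 to 0 with single libraries left out. The other 5 strata (89) gave 159 with DESeq2, 152 with trends removed and 53 to 151 with single libraries left out (53 without WT fluoxetine female replicate 5, 151 without WT vehicle male replicate 3). Lithium females against the other strata (0) gave 6 with DESeq2 and 0 to 0 with single libraries left out. The cause was not tested, save that trend removal takes out what follows GC content and length.

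Of 670 values of 28 other named genes under the alternatives, 6 came past the threshold and none changed sign while called.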
